A study of Drosophila melanogaster with 12 samples.

Results

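Yolk protein genes Yp1, Yp2 and Yp3 and the yolk receptor gene yolkless (yl) were followed through 12 RNA-seq libraries of whole female flies (Drosophila melanogaster, Oregon strain). The 4 genes were taken by their FlyBase identifiers from a count table of 17610 genes, and all 4 were among the 11060 genes with enough counts to be tested. The flies fell into 4 groups of 3 libraries: untreated controls, flies given cisplatin (a platinum compound used against tumours that binds DNA), flies given TiO2 nanoparticles, and flies given both. Exposure lasted 3 days, on culture medium enriched with yeast and dyed green. In the treated groups an aqueous solution of the test substance stood in place of the water. The protocol states a dose of 50 µg/ml of each substance, whereas the sample titles state 50 mg/ml. Nothing in the labels says whether the 3 libraries of a group came from separate cultures, how many flies were pooled, or how old they were, so the p-values measure the spread between these libraries, which may be technical.

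Yolk proteins are the main protein store of the fly egg. They are made in the fat body and in the follicle cells around the growing oocyte, in females under control of the sex-determination gene doublesex, and are secreted. The oocyte takes them up from the space around it through the Yolkless receptor, a member of the LDL receptor family that is made in the germline and works through clathrin-coated pits. The 3 yolk proteins are related to each other and to lipases, and their genes respond to ecdysone, juvenile hormone and food supply.

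All 4 genes lie on the X chromosome. Yp1 (FBgn0004045; chromosome X, 10053811 to 10055498, plus strand) and Yp2 (FBgn0005391; chromosome X, 10050951 to 10052636, minus strand) are transcribed away from each other, with 1174 bases and 0 other annotated genes between them. Yp3 (FBgn0004047; chromosome X, 13759546 to 13761547, plus strand) and yl (FBgn0004649; chromosome X, 14193214 to 14199958, plus strand) lie elsewhere on the same chromosome. Coordinates are those of the count table, and for all 4 genes they equal those of assembly BDGP6.54. All 4 are protein coding, with 1.611, 1.618, 1.868 and 6.351 kb of exon for Yp1, Yp2, Yp3 and yl. An antisense RNA gene, asRNA:CR45601, overlaps Yp1 and is listed with 0 counts in all 12 libraries. A microRNA gene and 1 other annotated feature overlap yl on its strand. How reads that match more than 1 gene were counted is not given in the sources used here, which bears on Yp1 and yl through these overlaps and on the yolk proteins through their likeness.

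Library totals ran from 26.8 to 46.7 M counts (M for mega), so the members rest on between 27361 and 484759 counts per library and counting error is small beside the spread between libraries. A count of 0 would have allowed up to 3 counts, or 0.0642 to 0.112 CPM (counts per M, relative to the library total), by counting error alone. A pair of libraries stood apart. The combination library of replicate 2 held 734 CPM of transcripts for male accessory gland proteins, against at most 0.643 CPM in the other 11. Of the 22 male transcripts listed, 21 had counts there, so this library of flies labelled female goes against its label. Combination replicate 3 had counts for 16 of the 22, with accessory gland transcripts at 0.479 CPM, and the remaining libraries for 7 to 10. The summed level of the male list was 98.8 to 230 CPM for controls, 91.7 to 95.9 with cisplatin, 62.02 to 112 with TiO2, and 58.9, 69.9 and 1606 with both. In control, cisplatin and TiO2 this sum was almost wholly 1 gene of the list, Est-6. Est-6 averaged 153, 92.1 and 78.8 CPM there, beside 156, 93.7 and 79.7 CPM for the whole list. The control library of replicate 1 had the highest share of mitochondrial counts (16.7%, against 6.20% to 12.4% in the others). It also had the lowest mean level of 20 eggshell genes, as described further on.

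Per length of transcript, the yolk proteins were among the most abundant messages of the fly. Yp2 had the highest level per kb of the 4 members in all 12 libraries. Its level averaged 4293 CPM per kb, and it ranked from place 4 to place 18 among all genes of a library on that scale. Yp1 averaged 2544 CPM per kb (places 8 to 43) and Yp3 2466 CPM per kb (places 7 to 44). The receptor yl averaged 260.5 CPM per kb, at places 205 to 603. Together the 3 yolk proteins took 1.55% ± 0.560 of all counts (SD, n = 12), from 0.678% in TiO2 replicate 1 to 2.38% in cisplatin replicate 1.

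Yp1 had 3159.9, 4233 and 3088 CPM in control replicates 1, 2 and 3. It had 5838, 4536 and 5697 CPM with cisplatin, 1894, 5458 and 5492 CPM with TiO2, and 4738, 2248 and 2795 CPM with both, each in the order of replicates 1 to 3. The cisplatin libraries all lay above the control libraries, while TiO2 replicate 1 was the lowest of all 12 and the other 2 TiO2 libraries were as high as cisplatin. Group means were 5357 ± 715 CPM with cisplatin, 4281 ± 2067 with TiO2, 3494 ± 641 untreated and 3260.4 ± 1308 with both (SD, n = 3 each). The ranges of neighbours in this order overlapped.

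Yp2, the partner of Yp1 across their shared upstream region, had 6463, 8189.6 and 5554 CPM in control. It had 10479.8, 7205 and 9934 CPM with cisplatin, 2363, 9802 and 8921.5 CPM with TiO2, and 6993, 4382 and 3065 CPM with both. As for Yp1, TiO2 replicate 1 was the lowest library and cisplatin replicate 1 the highest. Here cisplatin and control overlapped, and all 3 combination libraries lay below all 3 cisplatin libraries. Means were 9206 ± 1755 CPM with cisplatin, 7029 ± 4065 with TiO2, 6736 ± 1339 untreated and 4813 ± 1999 with both (SD, n = 3).

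Yp3, which lies apart from the other yolk protein genes, had 4539, 3905 and 2303 CPM in control. It had 7753, 4546 and 7564 CPM with cisplatin, 2053, 5411 and 6242 CPM with TiO2, and 3897, 3571 and 3488 CPM with both. The lowest cisplatin library and the highest control library, at 4546 and 4539 CPM, almost touched. The 3 combination libraries were close to each other (3652 ± 216 CPM) while TiO2 spread widely (4568 ± 2218), with 6621 ± 1799 CPM in cisplatin and 3582 ± 1152 in control (SD, n = 3).

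The receptor gene yl had 1002, 1209 and 1664 CPM in control. It had 2060.3, 1959 and 2081 CPM with cisplatin, 1503, 2169 and 1972 CPM with TiO2, and 1920.2, 837 and 1474 CPM with both. Its lowest library was combination replicate 2, the library with male transcripts, and not TiO2 replicate 1. The cisplatin libraries were tight (2033 ± 65.04 CPM) and all above control (1292 ± 339), with 1881 ± 342 CPM with TiO2 and 1410.4 ± 544 with both (SD, n = 3). In cisplatin the SD of log2 CPM was 0.05 for yl, beside a median of 0.13 over all genes tested. That median was 0.18 with TiO2, 0.50 in control and 0.62 with both, so the groups differed in spread across all genes. The edgeR model takes 1 spread per gene for all 4 groups. Over the 12 libraries yl spanned 2.59-fold, Yp1 3.08-fold, Yp3 3.78-fold and Yp2 4.44-fold. The SD of log2 CPM over the 12 libraries was 0.45, 0.56, 0.60 and 0.69 in the same order. These SDs exceeded those of 43.7%, 55.2%, 59.5% and 68.1% of the genes tested.

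**Figure D1:**
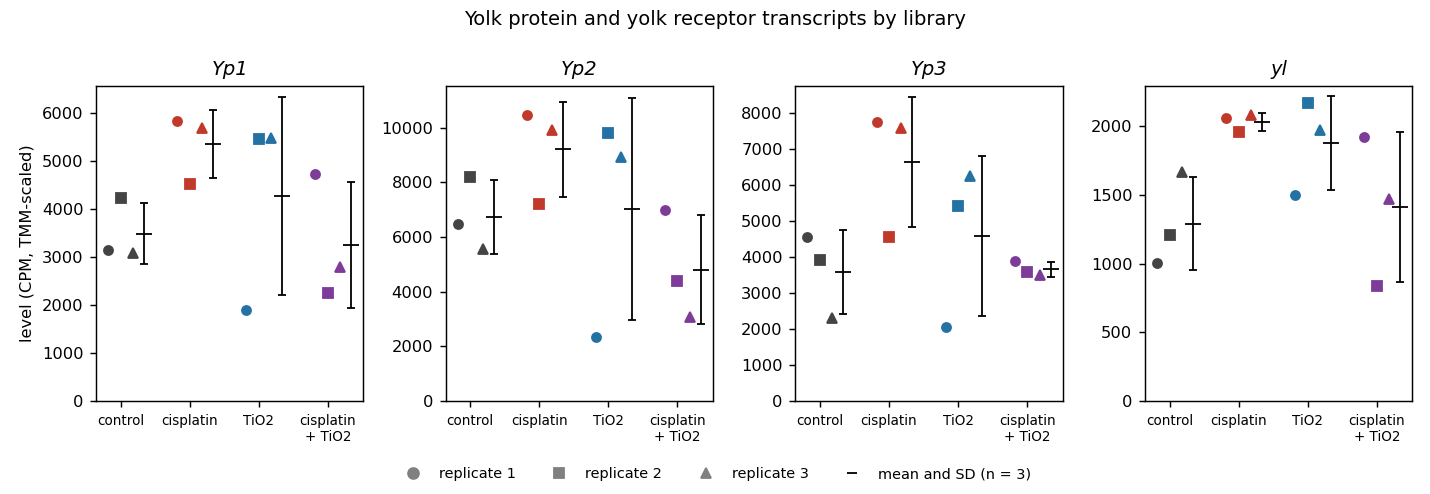
Level of Yp1, Yp2, Yp3 and yl in CPM (counts per M counts, TMM-scaled) in each of the 12 libraries by group, with each group's mean and SD (n = 3); marker shapes give the replicate number. TiO2 replicate 1 is the lowest library for the 3 yolk proteins (1894, 2363 and 2053 CPM), and the cisplatin libraries of yl lie at 1959 to 2081 CPM, above all control libraries.

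Cisplatin was compared with control to see how the yolk genes stood after the drug alone. All 4 members had higher means, and the ranges of Yp1, Yp3 and yl did not overlap those of control, which held for 15.6% of all genes in that direction. Yp3 was 1.85-fold higher (log2 fold change 0.89, 95% interval 0.02 to 1.75), yl 1.57-fold (0.65, 0.01 to 1.30), Yp1 1.53-fold (0.62, -0.25 to 1.48) and Yp2 1.37-fold (0.45, -0.58 to 1.48). None passed the threshold of 0.05 after Benjamini-Hochberg adjustment over all genes, by the quasi-likelihood test of edgeR (adjusted p 0.270 for Yp3 and yl, 0.314 for Yp1 and 0.481 for Yp2). At an unadjusted p under 0.05, Yp3 (0.0463) and yl (0.0471) were among the higher genes, as were 3.27% of all genes. The median log2 fold change of the members was 0.64, beside -0.03 over all genes. Without TiO2 replicate 1, a library of neither group, the unadjusted edgeR p was 0.00933 for Yp3 and 0.0468 for Yp1. It was 0.0503 for yl and 0.154 for Yp2, and 1653 of 11336 genes were under 0.05 in either direction. The edgeR adjusted p was then 0.324 for Yp3, Yp1 and yl and 0.353 for Yp2. With sample weights in limma voom, yl passed (log2 fold change 0.75, adjusted p 0.000163) and the yolk proteins did not, in a fit that called 8136 of 11060 genes (73.6%). In the authors' deposited table for this comparison the log2 fold changes were 0.89 for Yp3, 0.66 for yl, 0.62 for Yp1 and 0.45 for Yp2, with adjusted p from 0.214 to 0.587.

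For TiO2 alone, the same model gave the difference from control. The differences were smaller for the yolk proteins, and TiO2 replicate 1 lay below both other TiO2 libraries for each of the 4 members. The log2 fold change was 0.54 for yl (95% interval -0.10 to 1.19), 0.35 for Yp3 (-0.51 to 1.21), 0.29 for Yp1 (-0.57 to 1.16) and 0.06 for Yp2 (-0.97 to 1.09). None passed (edgeR Benjamini-Hochberg adjusted p from 0.309 to 0.930), and 0 of 4 had an unadjusted p under 0.05, beside 3.71% of all genes higher and 12.8% lower at that level. The ranges overlapped for all 4, while 11.3% of all genes were higher and 14.9% lower without overlap. Without TiO2 replicate 1 the log2 fold changes were 0.71 for Yp3, 0.69 for yl, 0.65 for Yp1 and 0.48 for Yp2. Only Yp3 then had an unadjusted edgeR p under 0.05 (0.0419, adjusted p 0.458), as did 1121 of 11336 genes in either direction. With TiO2 replicate 1 kept and TiO2 replicate 2 left out, the log2 fold changes were 0.20, 0.42, 0.07 and -0.27. With sample weights yl passed (0.69, limma voom adjusted p 0.000340) and the yolk proteins did not, where 71.5% of all genes passed. In the authors' deposited table the values were 0.60 for yl, 0.40 for Yp3, 0.34 for Yp1 and 0.10 for Yp2, with adjusted p from 0.184 to 0.888.

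For the combination against control, the members did not share a direction. Log2 fold changes were 0.13 for yl (95% interval -0.52 to 0.77), 0.03 for Yp3 (-0.83 to 0.89), -0.10 for Yp1 (-0.96 to 0.76) and -0.48 for Yp2 (-1.52 to 0.55). These intervals reach from a loss to a gain for each gene. None passed in edgeR (adjusted p from 0.952 to 0.994), 0 of 4 had an unadjusted p under 0.05 (3.27% of all genes were higher and 3.82% lower at that level). All ranges overlapped, while 1.76% of all genes were higher and 5.06% lower without overlap. With sample weights Yp2 passed as lower (-1.32, limma voom adjusted p 0.00669) and yl as higher (0.30, adjusted p 0.0318). These are 2 of 4 members in a fit where 58.4% of all genes passed. With the library that held male transcripts (combination replicate 2) left out, the values were 0.39 for yl, 0.11 for Yp1, 0.04 for Yp3 and -0.42 for Yp2, and none of the 4 passed. In the authors' deposited table the 4 values lay between -0.47 for Yp2 and 0.15 for yl, with adjusted p from 0.997 to 1.

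**Figure D2:**
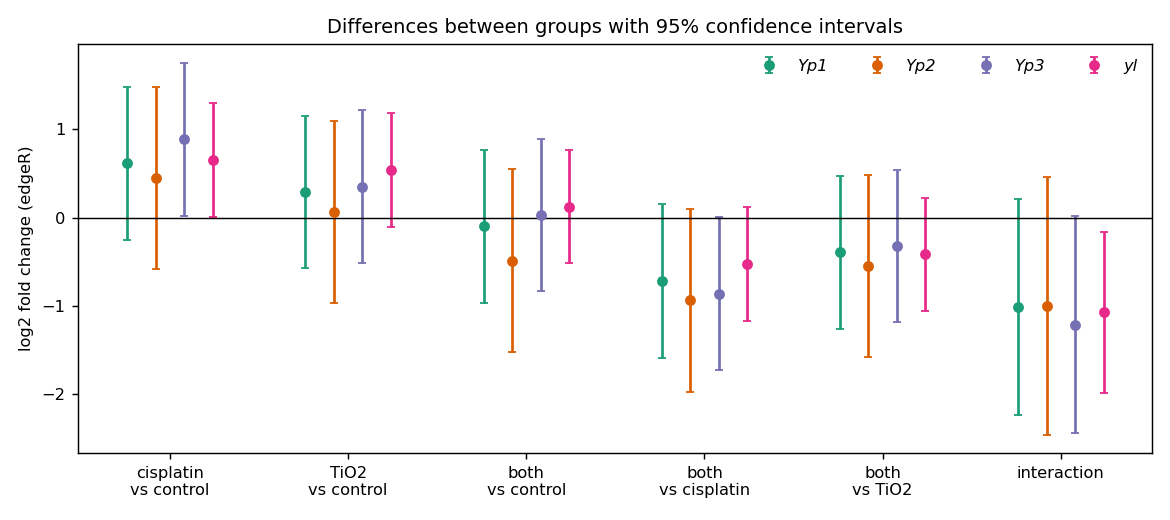
Log2 fold change of each member in the 5 comparisons of groups and in the interaction, on the vertical axis, from 1 edgeR model of the 12 libraries; points are estimates and bars 95% confidence intervals. The intervals of Yp3 and yl for cisplatin against control start at 0.02 and 0.01, and that of yl for the interaction ends at -0.16; no value passed after adjustment over all genes.

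The combination was then set against each single treatment to see what the added substance went with. Against cisplatin all 4 members were at lower means, and the ranges of Yp2, Yp3 and yl did not overlap, which held for 7.82% of all genes in that direction and 7.57% in the other. Log2 fold changes were -0.94 for Yp2 (95% interval -1.97 to 0.10), -0.86 for Yp3 (-1.73 to 0.01), -0.72 for Yp1 (-1.58 to 0.15) and -0.53 for yl (-1.17 to 0.12). None passed in edgeR (adjusted p from 0.347 to 0.419) and 0 of 4 had an unadjusted p under 0.05, beside 1.01% of all genes lower and 13.4% higher. The median over the members was -0.79, and over all genes -0.04. With sample weights all 4 passed (limma voom adjusted p 0.0142 for Yp2, 0.0160 for yl, 0.0282 for Yp1 and 0.0472 for Yp3), where 2618 of 11060 genes (23.7%) were called. Without combination replicate 2 the values were -0.26 for yl, -0.51 for Yp1, -0.84 for Yp3 and -0.87 for Yp2, and without combination replicate 1 they were -0.83 for yl, -1.10 for Yp1, -0.92 for Yp3 and -1.32 for Yp2. Leaving out TiO2 replicate 1, a library of neither group, lowered the standard error of Yp2 from 0.47 to 0.30. The unadjusted edgeR p was then 0.0107 for Yp2, 0.0109 for Yp3, 0.0255 for Yp1 and 0.101 for yl. In that fit 1475 of 11336 genes were under 0.05 in either direction, and the adjusted p was 0.383 for each yolk protein.

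Against TiO2 alone the members in the combination were again at lower means, by less. Log2 fold changes were -0.55 for Yp2, -0.42 for yl, -0.39 for Yp1 and -0.32 for Yp3, with standard errors of 0.47, 0.29, 0.39 and 0.39. None passed (edgeR adjusted p from 0.657 to 0.682; limma voom with sample weights from 0.0538 to 0.181, where 3.15% of all genes passed), and 0 of 4 had an unadjusted p under 0.05, beside 0.199% of all genes lower and 6.58% higher. All ranges overlapped, while 2.33% of all genes were lower and 4.23% higher without overlap. Without combination replicate 2 the values were -0.48 for Yp2, -0.31 for Yp3, -0.19 for Yp1 and -0.15 for yl. The values also turned on single TiO2 libraries. Without TiO2 replicate 1 they were -0.97 for Yp2, -0.75 for Yp1, -0.68 for Yp3 and -0.56 for yl, and the first 3 had an unadjusted edgeR p under 0.05, as did 531 of 11336 genes in either direction (adjusted p 0.742 for all 4). Without TiO2 replicate 2 they were -0.23, -0.18, -0.18 and -0.30 in the same order, and without TiO2 replicate 3 they were -0.35, -0.18, -0.04 and -0.39. Without combination replicate 1 they were -0.93, -0.77, -0.38 and -0.71, and without combination replicate 3 -0.31, -0.30, -0.30 and -0.46. Both comparisons use the same combination libraries.

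The interaction asks whether both substances given together differ from what the 2 single effects add up to in log2 units. It was negative for all 4 members: -1.21 for Yp3 (95% interval -2.43 to 0.01), -1.07 for yl (-1.98 to -0.16), -1.01 for Yp1 (-2.23 to 0.21) and -0.997 for Yp2 (-2.46 to 0.46). On a linear scale these values are 0.433 to 0.501 of the level that adding the single effects would give. None passed in edgeR with all libraries (adjusted p 0.133 for yl, 0.161 for Yp3, 0.205 for Yp1 and 0.258 for Yp2). Only yl had an unadjusted p under 0.05 (0.0254), beside 4.98% of all genes in the negative and 26.7% in the positive direction. The value of yl passed without combination replicate 1 (-1.37, edgeR adjusted p 0.0400), in a fit that called 25% of all genes, and was -0.80 without combination replicate 2, where Yp1, Yp2 and Yp3 were at -0.80, -0.93 and -1.19. Without TiO2 replicate 1 all 4 had an unadjusted edgeR p under 0.05 (-1.58 for Yp3, -1.43 for Yp2, -1.38 for Yp1 and -1.22 for yl), as did 2770 of 11336 genes in either direction, and the adjusted p was 0.196 for each. Without control replicate 1 and combination replicate 2 together the values were -1.34 for Yp3, -0.86 for Yp2, -0.68 for Yp1 and -0.61 for yl. With sample weights all 4 passed (limma voom adjusted p from 0.000170 for yl to 0.0198 for Yp2), as did 7963 of 11060 genes (72%). In DESeq2 none of the 4 passed in any of the 6 comparisons, the smallest adjusted p being 0.0715 for yl in the interaction.

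Numbers of genes called, as background for these counts, were 0 of 11060 (0%) in each of the 6 comparisons in edgeR. Without adjustment, p was under 0.05 for 2026 genes for cisplatin, 1824 for TiO2 and 784 for the combination against control, 1592 and 750 for the combination against cisplatin and TiO2, and 3502 for the interaction. DESeq2 called 212, 369, 102, 38, 3 and 1278 genes in the same order, or 1.98%, 3.45%, 1.01%, 0.37%, 0.0207% and 11.7% of those with an adjusted p.

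The members were next compared with each other inside each library, which takes out the scaling of the library. Per kb, Yp1 stood at 0.619 ± 0.127 of Yp2 (SD, n = 12). The ratio was 0.491, 0.519 and 0.558 in controls, 0.560, 0.632 and 0.576 with cisplatin, 0.805, 0.559 and 0.618 with TiO2, and 0.680, 0.515 and 0.916 with both. It was therefore nearly even in control and cisplatin and high in TiO2 replicate 1 and combination replicate 3, the libraries with the least Yp2. Yp3 stood at 0.603 ± 0.169 of Yp2, from 0.359 in control replicate 3 to 0.986 in combination replicate 3, where the 3 yolk proteins were almost level per kb.

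The receptor stood at 10.9% ± 3.48 of Yp1 per kb (SD, n = 12). It was highest in TiO2 replicate 1 (20.1%), followed by control replicate 3 (13.7%) and combination replicate 3 (13.4%), and lay between 7.25% and 11.0% in the other 9. So in TiO2 replicate 1 the yolk protein messages were low beside that of their receptor. The SD of the log2 ratio over the 12 libraries was 0.27 for Yp1 to Yp2, 0.33 for Yp3 to Yp1 and 0.40 for Yp3 to Yp2. For yl it was 0.40 against Yp1 and 0.62 against Yp2, against an SD of 0.45 for yl by itself.

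**Figure D3:**
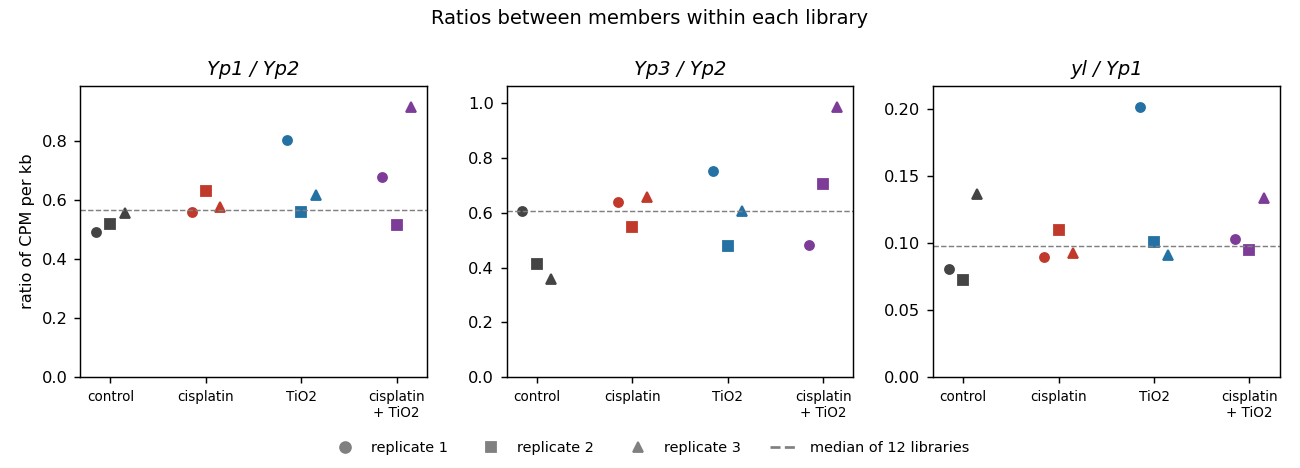
Ratios of levels per kb (CPM per kb) between members within each library, by group: Yp1 to Yp2, Yp3 to Yp2 and yl to Yp1; the dashed line is the median of the 12 libraries. TiO2 replicate 1 and combination replicate 3 have the highest Yp1 to Yp2 ratios (0.805 and 0.916), and TiO2 replicate 1 the highest yl to Yp1 ratio (0.201).

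Levels of the yolk proteins went together over the 12 libraries. For log2 CPM, Pearson's r was 0.928 between Yp1 and Yp2 (Spearman's rho 0.958), 0.838 between Yp1 and Yp3 (rho 0.923) and 0.818 between Yp2 and Yp3 (rho 0.937). The p-values of r, from a 2-sided permutation test with Benjamini-Hochberg adjustment over the 6 pairs of members, were 0.00012, 0.00183 and 0.00232 (unadjusted 2e-05, 0.00061 and 0.00116). Those of rho were 6e-05, 0.00016 and 6e-05 (unadjusted 1e-05, 8e-05 and 2e-05, the first being the smallest that 100000 resamples can give). Without the 2 libraries farthest from the median of the first gene of the pair, r was 0.889, 0.808 and 0.806. The permutations ran over all 12 libraries without regard to group, so differences between groups enter the p-values. For deviations from group means, pooled over the 4 groups, r was 0.935, 0.781 and 0.838, and no p-value was computed. The groups did not weigh alike in this. In TiO2, with replicate 1 lowest, the SD of log2 CPM was 0.88 for Yp1, 1.15 for Yp2 and 0.87 for Yp3. In the combination it was 0.55 and 0.60 for Yp1 and Yp2 but 0.08 for Yp3. Without TiO2 replicate 1, r of log2 CPM was 0.891, 0.762 and 0.723. Whether the yolk proteins varied together in each group was not tested.

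The receptor followed Yp1 less closely (r 0.707, adjusted permutation p 0.015, unadjusted 0.01; rho 0.804, adjusted p 0.00363, unadjusted 0.00242), with r 0.718 without the 2 farthest libraries and 0.632 for deviations from group means. Between yl and Yp2, r was 0.468 (adjusted permutation p 0.142, unadjusted 0.118) and rho 0.748 (adjusted p 0.00812, unadjusted 0.00677); without TiO2 replicate 1 and combination replicate 3, r was 0.734. Between yl and Yp3, r was 0.42 (adjusted permutation p 0.175, also unadjusted) and rho 0.671 (adjusted p 0.0202, also unadjusted), and r was 0.406 without TiO2 replicate 1 and cisplatin replicate 1. For deviations from group means, r with yl was 0.392 for Yp2 and 0.102 for Yp3. Over 8253 genes the median r with yl was 0.581, above the r of Yp2 and Yp3 and below that of Yp1. The permutation test sets r against 0 and not against this median. All pairs share the libraries and their scaling, and the library with male transcripts is among the 12. Without it r was 0.942, 0.875 and 0.817 for the yolk protein pairs in the order above, and 0.617 for Yp1 and yl.

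Since whole bodies were used, lists of genes of the tissues that make yolk were set beside the members. In such samples fewer cells of a type and less RNA per cell cannot be told apart. The 16 genes of the female germline list, with the maternal mRNAs nanos, swa (swallow), pgc (polar granule component) and exu (exuperantia) among them, had a mean level of 6.08, 6.26 and 6.85 log2 CPM in control. They had 7.13, 7.06 and 7.13 with cisplatin, 6.91, 7.199 and 7.09 with TiO2, and 7.15, 6.14 and 6.73 with both. The order of libraries was close to that of yl: the 3 libraries lowest on this list, control replicates 1 and 2 and combination replicate 2, were also the 3 lowest for yl. The difference in log2 CPM between yl and the list mean had an SD of 0.12 over the 12 libraries, where yl itself had 0.45. It was smallest in combination replicate 2 (3.57) and TiO2 replicate 1 (3.64) and lay between 3.76 and 3.98 in the other 10.

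For Yp1 the SD was hardly lower after taking the germline mean away (0.47, from 0.56), and for Yp2 and Yp3 it was about as high as before (0.69 and 0.61, from 0.69 and 0.60). Of the 16 germline genes, 15 had higher means than control in each treated group, beside 48.7%, 46.1% and 54.9% of all genes for cisplatin, TiO2 and the combination. At an unadjusted p under 0.05, 6, 5 and 1 were higher, beside 3.27%, 3.71% and 3.27% of all genes. The median log2 fold change was 0.69 for cisplatin, 0.69 for TiO2 and 0.25 for the combination, beside -0.03, -0.08 and 0.05 over all genes. None passed in edgeR after adjustment. The log2 fold changes of yl, 0.65, 0.54 and 0.13, stand beside these medians. For the interaction 14 of the 16 germline genes were negative, with a median of -1.02 beside 0.07 over all genes and -1.07 for yl. At an unadjusted edgeR p under 0.05, 7 of the 16 were negative there, beside 4.98% of all genes. The part of the germline level in the values of yl was not tested.

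The 20 eggshell genes, which follicle cells switch on while and after they make yolk protein, varied far more than the members. Their mean was 3.06 log2 CPM in control replicate 1, 3.18 in combination replicate 2 and 5.03 in TiO2 replicate 1, and between 7.30 and 9.58 in the other 9. Cp15, a late chorion protein gene, ranged from 1.87 to 2562 CPM within control alone. Vm34Ca, a vitelline membrane gene of earlier follicles, ranged from 431 to 1321 CPM in control and from 79.2 to 1649.9 CPM in TiO2. TiO2 replicate 1 and combination replicate 2 were the 2 libraries with the least Yp1 (1894 and 2248 CPM). The 2 lowest libraries were others for Yp2 (TiO2 replicate 1 and combination replicate 3, 2363 and 3065 CPM). They differed again for Yp3 (TiO2 replicate 1 and control replicate 3, 2053 and 2303 CPM). Control replicate 1, with a mean of eggshell genes close to that of combination replicate 2 but a summed level of 5617 CPM against 2692, had 3159.9 CPM of Yp1 and 6463 CPM of Yp2, between the other controls. Its Yp3, at 4539 CPM, was the highest of the controls. All 20 eggshell genes had higher means in cisplatin than in control (median log2 fold change 1.26) and lower means in the combination than in cisplatin (median -1.67, ranges without overlap for 16 of 20, beside 7.82% of all genes). None passed in edgeR. For the interaction all 20 were negative, with a median of -2.30 beside 0.07 over all genes, and 1 of the 20 had an unadjusted edgeR p under 0.05. The part of the eggshell level in the members' values was not tested.

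**Figure D4:**
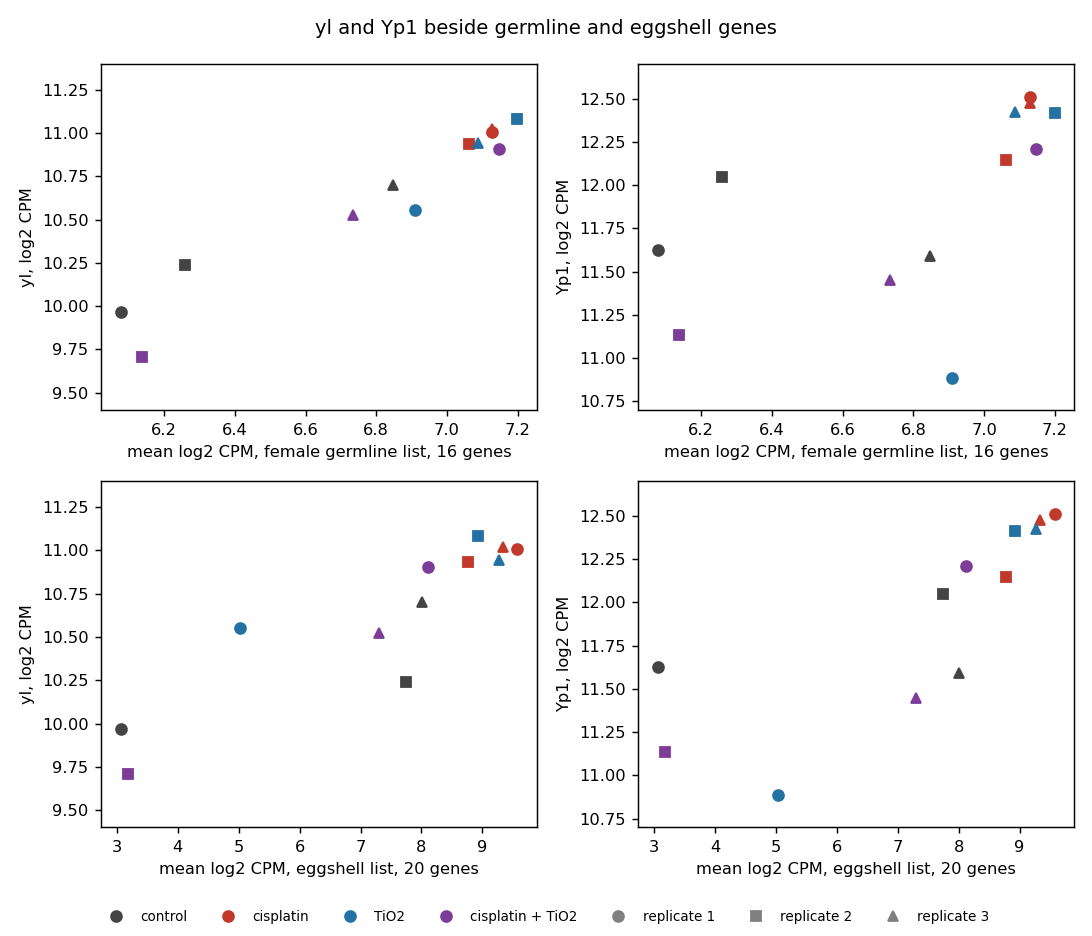
Level of yl (left) and Yp1 (right) in log2 CPM against the mean log2 CPM of 16 female germline genes (top) and 20 follicle cell eggshell genes (bottom), 1 point per library. The yl points lie along a narrow band over the germline mean (SD of the difference 0.12), while Yp1 is at 10.89 in TiO2 replicate 1, where the germline mean is 6.91.

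The genes whose log2 CPM followed each member most closely were picked from 8253 genes with a mean of at least 5 CPM, by Pearson's r over the 12 libraries as a measure of likeness. For Yp1 they were Ir7c (r 0.980), dec (defective chorion, 0.975), Tmhs (0.952), St4 (0.939) and Vm26Ac (0.933). For Yp2 they were St4 (0.969), the vitelline membrane gene Vml (0.948), put, which encodes a receptor of the TGF-beta family (0.947), dec (0.938) and Cad88C (0.936). Yp1 and Yp2 thus shared dec and St4, and vitelline membrane genes stood on both lists.

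For Yp3 the values were lower, with Pat1 (r 0.911), the protein disulfide isomerase gene ERp60 (0.885), put (0.877), the vitelline membrane gene Vm32E (0.876) and CG43672 (0.865). For yl the closest were CG12945 (0.987), the isoleucyl-tRNA synthetase gene IleRS (0.986), gb (0.984), PIG-T, of glycolipid anchor attachment (0.984), and CG10254 (0.984). The median r over all 8253 genes was 0.581 for yl, 0.275 for Yp1, 0.09 for Yp2 and 0.05 for Yp3, so much of the transcriptome shared the pattern of yl. The median over the germline genes was 0.931 for yl, 0.500 for Yp1, 0.235 for Yp2 and 0.244 for Yp3. Over the eggshell genes it was 0.818, 0.775, 0.616 and 0.504 in the same order, so Yp1 had the highest values of the yolk proteins.

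Fat body genes had another order of libraries than the yolk proteins. The 8 genes had a mean level of 8.58 log2 CPM in combination replicate 2 and 8.49 in control replicate 1, the highest, and 5.62 in combination replicate 1, the lowest. Apolpp, the precursor of the main lipid carrier of the blood, had 1577 ± 1223 CPM untreated, 1441 ± 359 with cisplatin, 1072 ± 739 with TiO2 and 1189.6 ± 810 with both (SD, n = 3). Obp99b had 138.5 ± 137, 70.2 ± 52.8, 29.9 ± 20.4 and 128 ± 134 CPM in the same order. Lsp2 had 160 ± 89.6, 225 ± 75.5, 112 ± 29.0 and 184 ± 147 CPM, higher than control with cisplatin and with both. Of the 8 genes, 3 had log2 fold changes above 0 for cisplatin, 1 for TiO2 and 3 for the combination against control. Of all genes, 48.7%, 46.1% and 54.9% did. The median log2 fold change of the 8 genes against control was -0.18 in cisplatin, -0.55 with TiO2 and -0.05 with both, beside -0.03, -0.08 and 0.05 over all genes. In these 3 comparisons 0 of 8 had an unadjusted edgeR p under 0.05. At that level 3.27%, 3.71% and 3.27% of all genes were higher and 15%, 12.8% and 3.82% lower. For the interaction 2 of 8 were under 0.05 in the positive direction, beside 26.7% of all genes.

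None of the genes of the uptake route passed. Of 15 genes for clathrin-mediated uptake and vesicle traffic, 0 passed in edgeR in any comparison, and the median log2 fold change was 0.22 for cisplatin, 0.17 for TiO2 and 0.07 for the combination against control. Rab11, of the recycling endosome, had 270.1 ± 22.3 CPM in control and 334 ± 9.82 in cisplatin, and the ranges did not overlap. In that direction this held for 4 of the 15 genes and 15.6% of all genes. Rab7 had 225 ± 15.3 CPM in control and 199 ± 8.95 in cisplatin, lower without overlap, as for 1 of the 15 genes and 15% of all genes. With TiO2 Rab7 had 193 ± 8.00 CPM, again lower without overlap. For TiO2 this held for 3 of the 15 genes and 14.9% of all genes, and 1 of the 15 and 11.3% of all genes were higher. Boca, a chaperone that yl and other LDL receptor family proteins need to reach the surface, had 42.8 ± 4.54 CPM in control and 30.1 ± 3.96 in the combination (log2 fold change -0.51 with a standard error of 0.19, unadjusted edgeR p 0.0203, adjusted p 0.600). Here too the ranges did not overlap, which held for 5.06% of all genes in the lower direction. Other LDL receptor family genes had lower levels per kb than yl. The highest of the 6 was cue with 85.9 CPM per kb, followed by LpR2, a lipophorin receptor, with 55.5 CPM per kb. Against control, cue had log2 fold changes of 0.44, 0.41 and 0.16 in cisplatin, TiO2 and the combination, and 0 of 6 genes passed.

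Cathepsins, which break down yolk proteins in the embryo and serve as lysosomal proteases elsewhere, were at lower means. All 3 genes had lower means than control in all 3 treated groups. CtsB had 336 ± 48.4 CPM untreated, 236 ± 8.51 with cisplatin, 199 ± 17.9 with TiO2 and 236 ± 17.2 with both (SD, n = 3). Its log2 fold changes were -0.51, -0.76 and -0.51 with unadjusted edgeR p of 0.00530, 0.000349 and 0.00536 and adjusted p of 0.270, 0.276 and 0.600. CathD had 392.2 ± 43.5, 277 ± 32.5, 243 ± 18.1 and 274 ± 53.4 CPM in the same order, with log2 fold changes of -0.50, -0.69 and -0.52. For both genes all treated libraries lay below all control libraries, which held for 15%, 14.9% and 5.06% of all genes in the 3 comparisons. CtsL1 had log2 fold changes of -0.11, -0.27 and -0.17, with ranges that overlapped control in all 3 comparisons.

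Hormone and sex regulators of the yolk genes were split in direction. Of 29 genes 27 were tested, 0 passed, 15 had higher and 12 lower means in cisplatin than in control, and the median log2 fold change was 0.09 for cisplatin, -0.05 for TiO2 and 0.03 for the combination against control. Jhe, an esterase that breaks down juvenile hormone, had 9.31 ± 6.70 CPM untreated, 2.26 ± 0.375 with cisplatin, 2.20 ± 0.298 with TiO2 and 6.88 ± 6.78 with both. Its log2 fold changes of -2.04 and -2.08 for the single treatments had unadjusted edgeR p of 0.0285 and 0.0265 and adjusted p of 0.270 and 0.300. The ecdysone receptor partner usp had 95.5 ± 36.0 CPM in control and 144 ± 4.97 in cisplatin, with ranges that did not overlap, as for 5 of the 27 genes and 15.6% of all genes in that direction. Aef1, a repressor known to bind an enhancer of Yp1, had 162 ± 61.9 CPM in control and 260 ± 17.2 in cisplatin.

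Genes of nutrient signalling were looked at because yolk synthesis depends on food. Of 16 genes 0 passed. Thor, the translation inhibitor that rises when insulin signalling falls, had 164 ± 15.6 CPM untreated, 120.5 ± 5.95 with cisplatin, 114.7 ± 9.09 with TiO2 and 162 ± 39.1 with both (SD, n = 3). Its log2 fold changes of -0.44 and -0.51 for the single treatments had adjusted edgeR p of 0.270 and 0.300. The amino acid transporter gene slif had 110.4 ± 50.3, 190.3 ± 7.00, 196 ± 5.82 and 134 ± 58.3 CPM in the same order, with cisplatin and TiO2 above all control libraries. This held for 5 and 7 of the 16 genes, beside 15.6% and 11.3% of all genes.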

How the data were processed

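The authors deposited raw read counts per gene for 12 libraries in 1 table with the columns of a featureCounts output, per the file headers. The submitters' processing notes name FastQC, Trimmomatic, BWA, SAMtools and HTSeq without roles or versions; the genome build and the strand setting of the counting are not given in the sources used here. Per the labels' protocols, stranded mRNA libraries were made from Trizol RNA. Gene length (another column of that table, in bases) was used for levels per kb. The authors' deposited comparison tables give log2 fold changes, standard errors and adjusted p-values, with the columns of a DESeq2 result per the file headers.

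From the counts, genes were kept by filterByExpr (11060 of 17610) and scaled by TMM. 1 quasi-likelihood model of 4 group means was fitted with edgeR (version 4.0.16, R 4.3.3) and tested in 6 contrasts, 2-sided, with Benjamini-Hochberg adjustment over all genes and a threshold of 0.05. The procedure was tested on simulated data. These had the same spread in all groups and larger changes than the members showed, so the test does not cover the unequal spread of these groups. CPM use TMM-scaled library sizes, and log2 CPM a prior count of 2. Intervals are 95% intervals of the fit. limma (3.58.1) and DESeq2 (1.42.0) served as alternatives. Groups and replicates come from the sample titles. Members and 9 context lists (135 genes) were chosen with earlier results of these data known. Of each list, the 2 genes with the highest level per kb and the 2 with the largest change in the combination (mean of at least 5 CPM) could be named, besides the 5 genes most alike to each member. No sequences were used here.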

Additional observations from a re-analysis of the deposited data

How the results depend on the processing

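The members' log2 fold changes rest on 3 libraries a group, and depth did not limit them. Each was recomputed under 20 other settings (19 for the interaction), 1 of which, leaving out control replicate 1 and combination replicate 2 together, was chosen after seeing the data. RLE scaling, no scaling factor, no filter, DESeq2, the replicate block and fitting only the 2 groups compared changed no direction and no call of a member, and edgeR called 0 genes in each of its fits among these. Deviations from group means correlated from -0.74 to 0.47 (median -0.00) for the same replicate number and from -0.73 to 0.84 (median -0.01) for different numbers. With 3 libraries a group this cannot exclude a pairing. With the replicate block 0 genes were called in each comparison, as in the main fit, so this count cannot decide it either. DESeq2 called 212 genes for cisplatin, 369 for TiO2 and 102 for the combination against control, 38 and 3 for the combination against cisplatin and TiO2, and 1278 for the interaction. limma voom with sample weights called 8136, 7905, 6462, 2618, 348 and 7963 in the same order; the cause was not tested. Under it Yp2 was -0.0727 for TiO2 and Yp3 -0.15 for the combination against control, both reversed. Leaving out 1 library at a time gave 0 to 0 genes for cisplatin against control and for the combination against each single treatment, 0 to 14 for TiO2 and 0 to 4 for the combination against control (the highest without combination replicate 2), and 0 to 2823 for the interaction (1752 without control replicate 3, 2823 without combination replicate 1). In those fits the values near 0 changed sign. Yp2 for TiO2 ran from -0.27 to 0.48, being -0.05 without control replicate 3, -0.27 without TiO2 replicate 2 and -0.14 without TiO2 replicate 3. For the combination against control, Yp1 ran from -0.48 to 0.11 (0.06 without control replicate 2, 0.11 without combination replicate 2), Yp3 from -0.21 to 0.22 (-0.21 without control replicate 3, -0.03 without combination replicate 1) and yl from -0.17 to 0.39 (-0.04 without control replicate 1, -0.17 without combination replicate 1). Without control replicate 1 and combination replicate 2 together, Yp2 was -0.00657 for TiO2 and Yp1 0.0153 for the combination, and 12 and 3 genes were called there. For cisplatin against control, without 1 library at a time, Yp1 ran from 0.54 to 0.78, Yp2 from 0.34 to 0.62, Yp3 from 0.66 to 1.10 and yl from 0.49 to 0.89, and none passed.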
